A study of Mus musculus with 12 samples.

Results

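Histone genes were followed in bone marrow-derived macrophages (BMDMs), which are macrophages grown in culture from mouse bone marrow. Every symbol of the expression table that begins with H1f and a digit, H2ac, H2bc, H3c, H4c, H2ax, H2az, H3f3 or Hist and a digit was taken, without the pseudogenes that end in -ps, which gave 75 of 38739 symbols. Of these 75 genes, 62 were classed by symbol as replication-dependent histone genes, 6 as replacement histone genes (H1f10, H2ax, H2az1, H2az2, H3f3a and H3f3b) and 5 as germ line variants. H1f0, which would be a replacement gene, is not in the table. The remaining 2 were set apart, because H3f3aos is a long non-coding RNA antisense to H3f3a and H3f3c is a processed pseudogene. The study asked how macrophages without cyclic GMP-AMP synthase (cGAS), the cytosolic DNA sensor encoded by Cgas, answer lipopolysaccharide (LPS), a component of the bacterial outer membrane. RNA was measured in 12 samples that form 4 groups of 3, which are WT UT, cGAS-/- UT, WT LPS and cGAS-/- LPS, where UT stands for the media control. The study's methods give male mice, 8 weeks old, with C57BL/6J as the WT and as the background of the cGAS-/- mice, which lack the gene in every cell. The sample labels give 100 ng/mL of LPS for 1 h, whereas the study's methods give 150 ng/mL for 24 h, and these could not be reconciled here. The labels also name neutrophils at the extraction step and cGAS knockout mice as the source of every culture. Since the study describes its triplicates as technical, p-values here measure the spread between the samples and not between mice.

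Histones package DNA into nucleosomes. H2A, H2B, H3 and H4 form the core of the nucleosome, and the linker histone H1 binds where DNA enters and leaves it. Replication-dependent histone genes sit in clusters and are transcribed mainly in S phase, when newly made DNA needs histones. Their mRNAs usually end in a conserved stem-loop rather than a poly(A) tail, and the stem-loop binding protein SLBP guides their processing and translation. Replacement histones are made throughout the cell cycle from mRNAs that carry a poly(A) tail. H3f3a and H3f3b both encode H3.3, which is laid down at transcribed genes, H2az1 and H2az2 encode H2A.Z, found next to promoters, and H2ax encodes H2A.X, which is phosphorylated at DNA breaks. BMDMs divide while macrophage colony-stimulating factor drives them, and LPS is known to stop their cell cycle. The nucleosome is also known to bind cGAS in the nucleus and to keep it inactive.

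The values are taken here as TPM, transcript abundances corrected for length and library size, a unit inferred from the values. Comparisons of levels between genes rest on this. A further limit is that a symbol's value appears, from the values alone, to be an average over its annotated transcripts. That would lower genes with many transcripts such as H3f3a and H2az1. Cgas stood at 1.19 to 3.25 TPM in the 6 WT samples and at 0.0703 to 0.291 TPM in the 6 cGAS-/- samples. The sums of the columns ran from 447189 to 503156 in 11 samples and reached 709802 in WT LPS replicate 3, where 1 ferritin heavy chain pseudogene, Fth-ps3, took 31.7% of the total and coding genes 18.5%. The spread of that group's log2 values over all tested genes (root mean square SD 0.895) was above that of the other groups (0.322 to 0.376). The main results that rest on WT LPS are therefore given with and without replicate 3. The read depth is unknown. All 6 macrophage markers in the table were above 0 in every group, and their summed level was 16786 to 34157 TPM, most of it lysozyme (Lyz2). The B cell markers summed to 108 to 134 TPM in WT UT, 20.0 to 28.6 in cGAS-/- UT, 30.7 to 45.0 in WT LPS and 3.08 to 8.89 in cGAS-/- LPS, and the neutrophil markers to 139 to 213, 52.9 to 126, 35.5 to 353 and 46.4 to 59.9 TPM in the same order. The part of these cells in the results was not tested. In bulk RNA, fewer cells of a type and less RNA per cell cannot be told apart.

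The stem-loop was looked for in the mouse genome (GRCm39) in the 200 bases after the stop codon, as 6 base pairs that begin with GG around a loop of 4 bases that begins with TTT. It was present in 77 of 21644 coding genes (0.356%), and 61 of these 77 were among the histone genes described here. Of the 62 replication-dependent genes 57 carried it, at 21 to 58 bases (median 30) after the stop codon. H2bc21, H2ac22, H3c8 and H4c1 had no match in this window, and H2ac14 is not in the annotation used. They were kept in the class, which was set by symbol, and whether H2bc21 belongs there was not tested. Of the 6 replacement genes only H2ax, whose mRNA is known to occur in both forms, carried one. The stem followed the family. All 49 stem-loops of H1, H2A, H2B and H3 genes other than H2ax began with GGCTC, whereas the 11 of H4 genes began with GGCCC (9 genes) or GGTCC (2 genes), and the H2ax stem began with GGCCC. The windows below are those of the genes on which the results turn, written 5′ to 3′ as DNA with the stem-loop in capitals. The capitals lie at chr13:23923495-23923510 (plus strand) for H1f2, chr13:23868630-23868645 (plus) for H2bc4, chr3:96147100-96147115 (minus) for H2ac19, chr3:96127734-96127749 (minus) for H2ac20, chr13:22225136-22225151 (minus) for H4c9 and chr9:44246537-44246552 (plus) for H2ax.
H1f2: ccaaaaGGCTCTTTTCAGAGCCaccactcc
H2bc4: tccaaaGGCTCTTTTCAGAGCCacccactt
H2ac19: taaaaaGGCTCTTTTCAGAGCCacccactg
H2ac20: caaaaaGGCTCTTTTTAGAGCCaccaaatc
H4c9: cttaaaGGCCCTTTTTAGGGCCaccacaaa
H2ax: cacaaaGGCCCTTTTAAGGGCCaccacctc

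The annotated transcript ends were set beside the levels. For 23 of the 57 replication-dependent genes with a stem-loop, at least 1 annotated transcript runs on for 100 bases or more of genome beyond it, and 8 of these 23 were above 0 in all 12 samples. For the other 34 the annotation stops within 100 bases of the stem-loop or before its end, and only 1 of these, H2ac19, was above 0 in all 12 samples. Of the 8, H1f3, H2bc6, H2bc23 and H4c14 had means of only 0.213, 0.447, 0.427 and 0.618 TPM. By the filter on low values described below the shares were close, with 11 of the 23 and 15 of the 34 passing. The annotation goes 9518 bases beyond the stem-loop for H2bc4, 840 for H1f2, 330 for H4c9 and 822 for H2ax, and 35 for H2ac19. The libraries were made with a kit for mRNA, and whether it selected poly(A) tails was not tested. No p is given for this difference, because the genes share libraries and often sequence.

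**Figure D1:**
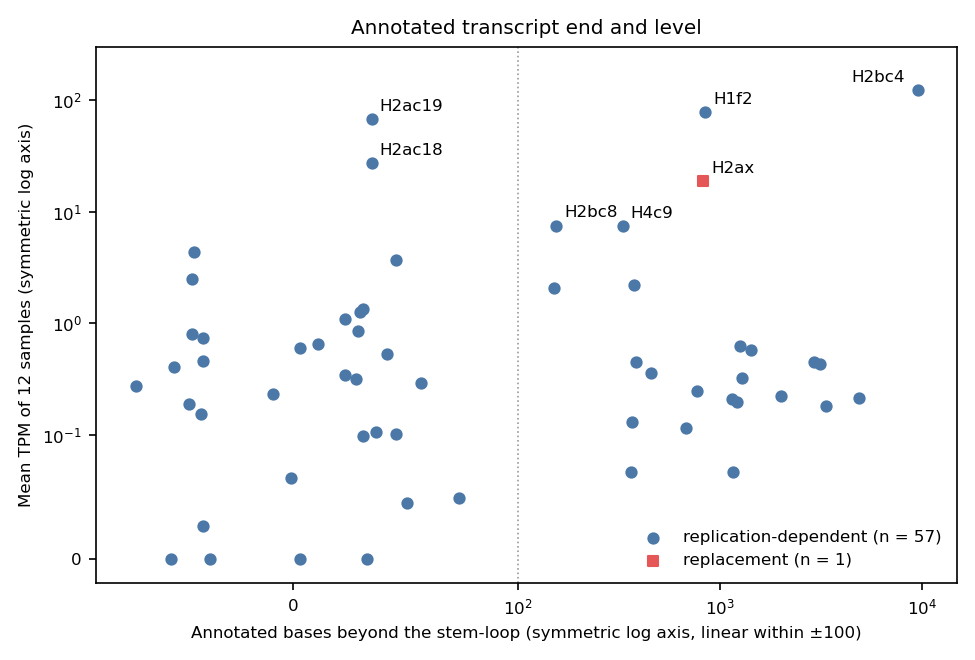
Mean level over the 12 samples (TPM, symmetric log axis) against how far the annotation runs beyond the stem-loop (bases of genome, symmetric log axis), for 57 replication-dependent genes (circles) and H2ax (square). H2bc4 and H1f2 lie high on the right of the dotted line at 100 bases, and H2ac19 and H2ac18 are the high points to its left.

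Most replication-dependent genes were close to 0 in these mRNA libraries. Of the 62 genes, 10 were above 0 in all 12 samples, 4 were at 0 in all, and 27 passed the filter on low values (at least 1, after each sample was scaled to a total of 1000000, in at least 3 of 12 samples). The 6 replacement genes all passed, and the 33 tested histone genes stood among 11887 tested genes. Each of the 33 reached the filter value in samples of more than 1 group, but H2ac20, H2bc23 and H4c2 in samples of only 2. For H2ac20 and H2bc23 the 3 WT UT samples alone met the filter. Of the 42 genes that were not tested, 7 were at 0 in all samples, 26 never exceeded 1 TPM and 16 exceeded it in at least 1 sample. These 16 were H1f5, H2ac1, H2ac10, H2ac11, H2ac13, H2ac14, H2ac15, H2bc9, H2bc22, H3c1, H3c8, H3c10, H3c11, H3c13, H3f3c and H4c3, with 7.08 TPM (H2ac13, 1 sample) as the highest value.

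**Figure D2:**
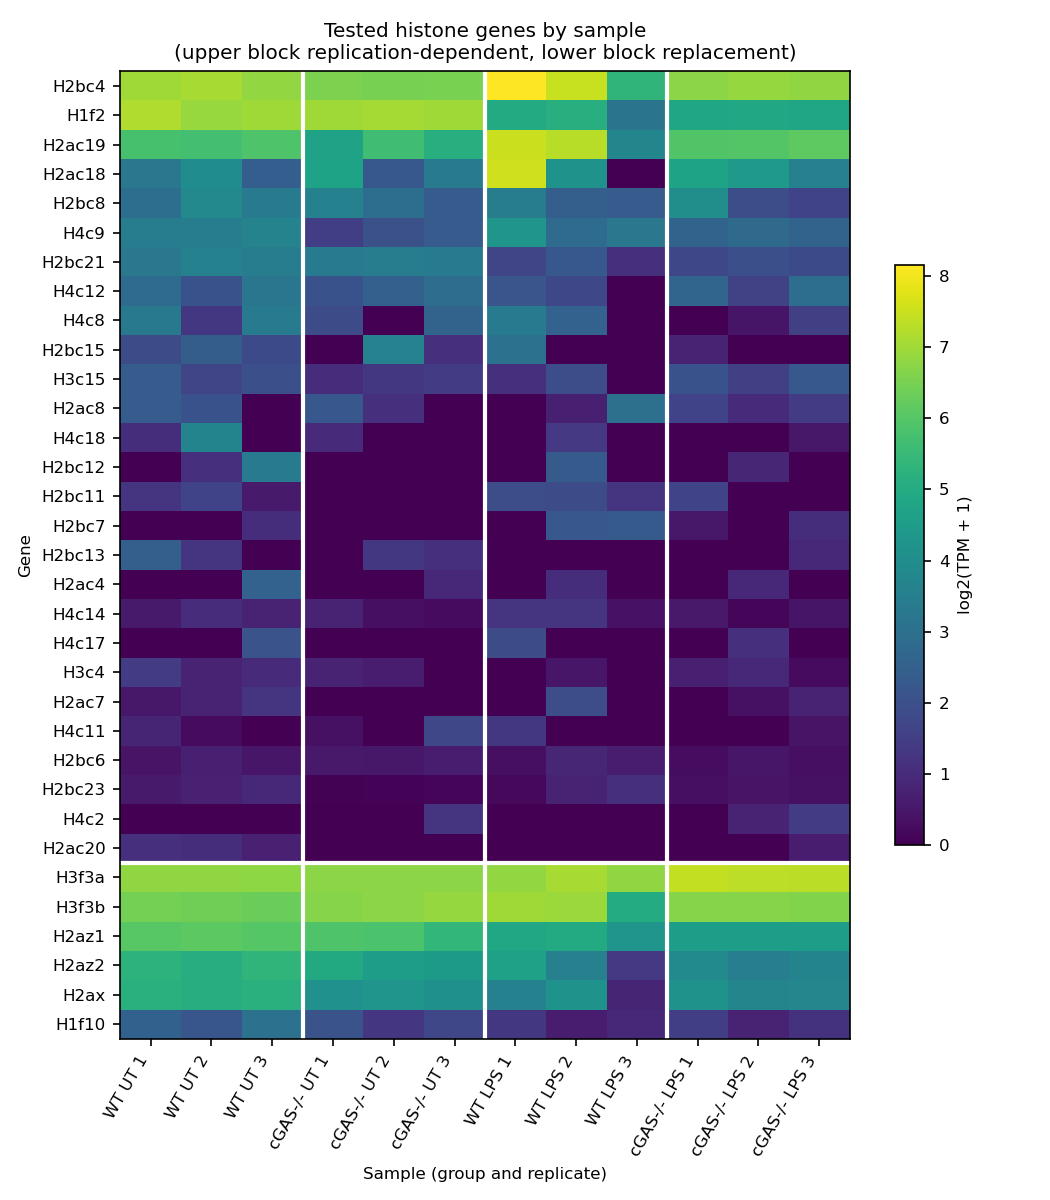
Levels of the 33 tested histone genes, as log2(TPM + 1) by colour, in each of the 12 samples (columns, by group and replicate). The 27 replication-dependent genes form the upper block and the 6 replacement genes the lower one, and within the blocks genes are ordered by mean level. WT LPS replicate 3 is darker than its group in H2bc4, H1f2, H2ac19, H3f3b and H2ax.

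The class was carried by few genes. H2bc4 (an H2B gene), H1f2 (the linker histone H1.2) and H2ac19 (an H2A gene) together held 66.0% to 84.6% of the summed level of the 62 genes in each sample. Within the linker family H1f2 made up 99.1% of the sum of the 5 genes over all samples. The replication-dependent H3 genes were low: the sum of all 12 was 1.15 to 9.29 TPM, against 143 to 269 TPM for the pair H3f3a and H3f3b. The sum of the 12 H4 genes was 8.53 to 36.5 TPM. Replication-dependent mRNAs usually lack a poly(A) tail, and a kit for mRNA may read such RNA poorly. Whether this lowered the values of the class was not tested.

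The summed level of the replication-dependent genes was 404, 413 and 391 TPM in WT UT and 314, 318 and 301 TPM in cGAS-/- UT, so the untreated groups did not overlap. It was 259, 249.9 and 251 TPM in cGAS-/- LPS. In WT LPS it was 749 and 429 TPM in replicates 1 and 2 and 90.5 TPM in replicate 3, a range that took in all other groups. The replacement sum varied less, with 331 to 338 TPM in WT UT, 299.7 to 315 in cGAS-/- UT, 301 to 324 in cGAS-/- LPS, and 303, 314 and 164 in WT LPS. The ratio of these sums within a sample does not depend on how samples are scaled. It was 1.19, 1.25 and 1.17 in WT UT, 0.997, 1.03 and 1.01 in cGAS-/- UT, and 0.798, 0.808 and 0.834 in cGAS-/- LPS, 3 groups without overlap. In WT LPS it was 2.47, 1.37 and 0.550. The lower ratio in cGAS-/- LPS than in cGAS-/- UT came from H1f2. Without this gene, a setting chosen after the data were seen, the ratio was 0.595, 0.604 and 0.581 in cGAS-/- UT and 0.715, 0.715 and 0.743 in cGAS-/- LPS, higher with LPS and again without overlap. It was then 0.768, 0.889 and 0.791 in WT UT, and 2.37, 1.25 and 0.502 in WT LPS.

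**Figure D3:**
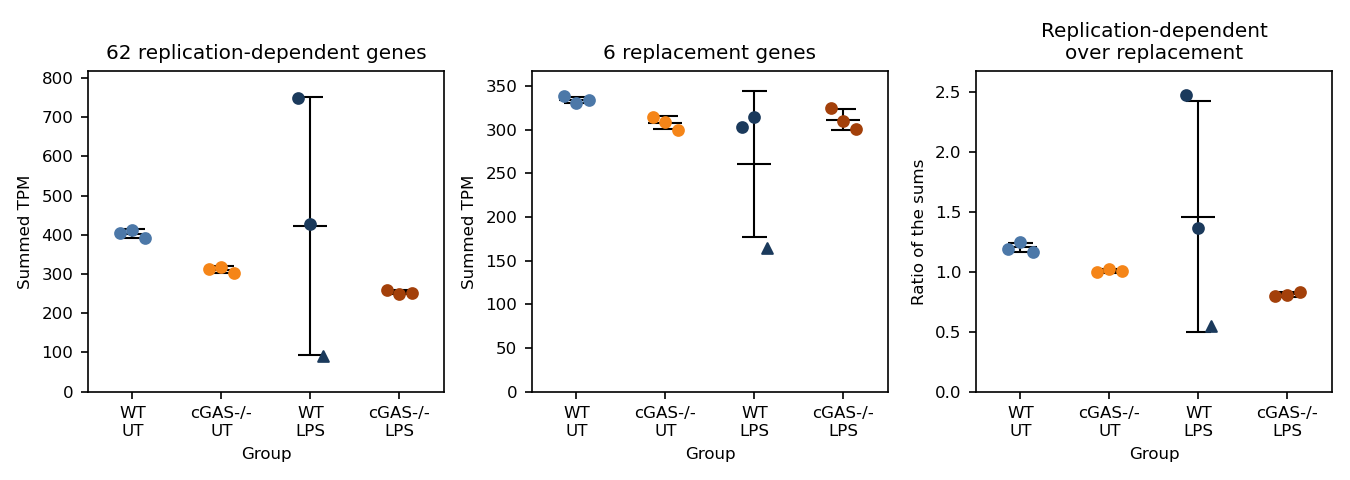
Summed TPM of the 62 replication-dependent genes (left), of the 6 replacement genes (middle) and the ratio of these sums (right) in each sample, with the mean and SD of each group (n = 3). The triangle is WT LPS replicate 3. The cGAS-/- UT sums of the replication-dependent genes (301 to 318) lie below those of WT UT (391 to 413), and the 3 WT LPS samples are spread from 90.5 to 749.

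In untreated cells, the question was whether the loss of cGAS changes the levels of histone genes. On the log2(TPM + 1) scale, 2 of the 33 tested genes were lower in cGAS-/- UT than in WT UT at an adjusted p under 0.05 and none was higher, in the fit of limma to all 12 samples, against 1.83% of all tested genes in either direction and 1.58% in the lower one. H4c9, which encodes histone H4, was at 9.78, 9.77 and 11.4 TPM in WT UT and at 1.87, 3.06 and 4.12 TPM in cGAS-/- UT. The groups did not overlap, and its log2 fold change was -1.53 ± 0.34 (SE, adjusted p = 0.0496), a 3.42-fold lower mean. H2ac20, an H2A gene, was at 1.18, 1.08 and 0.668 TPM in WT UT and listed at 0 in the 3 cGAS-/- UT samples (log2 fold change -0.97 ± 0.19, adjusted p = 0.0222). Its 3 WT UT samples alone met the filter, with 1 cGAS-/- LPS sample beside them, and such a gene had to differ between groups. Both calls were close to the threshold. That of H4c9 was lost when any of the 9 samples outside WT LPS was left out, and that of H2ac20 when any cGAS-/- UT sample or WT UT replicate 1 or 2 was left out (adjusted p up to 0.23 and up to 0.104 over the alternatives).

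The spread of WT LPS enters this fit although the group is not compared. When replicate 3 of WT LPS was left out, 4 histone genes were called, against 5.33% of all genes, with H2ax lower and H3f3b higher as the added calls. When only the 6 untreated samples were fitted, 8 were called against 10.4% of all genes: H2ac7, H2ac20, H2ax, H2bc4, H2bc11, H2bc23 and H4c9 were lower and H3f3b was higher. H2ax stood at 35.1, 33.0 and 34.9 TPM in WT UT and at 16.4, 17.99 and 16.1 TPM in cGAS-/- UT. The groups were far apart relative to their spread, with a log2 fold change of -0.99 (adjusted p = 1 with all 12 samples, 0.00734 without WT LPS replicate 3 and 0.000735 with the 6 untreated samples). H2bc4, the replication-dependent gene with the highest mean over all 12 samples, was at 125, 135 and 114 TPM in WT UT and at 92.9, 88.2 and 89.8 TPM in cGAS-/- UT (log2 fold change -0.46, adjusted p = 0.0144 in the 6 untreated samples alone). H3f3b was at 86.3, 83.2 and 79.2 TPM in WT UT and at 101, 106 and 114 TPM in cGAS-/- UT, again without overlap (log2 fold change 0.36, adjusted p = 0.0194 in the same fit).

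H1f2 was at 144, 119 and 127 TPM in WT UT and at 126, 131 and 127 TPM in cGAS-/- UT, and the groups overlapped (log2 fold change -0.01 ± 0.43). H2bc21, an H2B gene, was at 8.69 to 10.98 TPM and 9.22 to 10.1 TPM. It was classed as replication-dependent by symbol, although no stem-loop was found for it. Taken over the classes, the median log2 fold change was -0.47 for the 27 replication-dependent genes (23 below 0) and -0.46 for the 6 replacement genes (5 below 0), against -0.04 for all tested genes. Both class medians stayed below 0 when samples were rescaled by TMM factors, to a common total or by quantiles (-0.55 to -0.39). The samples of the untreated groups did not overlap in 14 of the 33 genes, against 30.5% of all tested genes.

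H1f2, H2bc21 and H2az1 were the histone genes called lower with LPS in both genotypes. Of all tested genes 23.3% were called lower in WT and 9.06% in cGAS-/-, so a count of 3 in 33 is by itself no result about histone genes. H1f2 fell from 144, 119 and 127 TPM in WT UT to 30.7, 34.6 and 7.89 TPM in WT LPS, and from 126, 131 and 127 TPM in cGAS-/- UT to 27.1, 28.7 and 27.4 TPM in cGAS-/- LPS. Its mean was 5.32-fold lower with LPS in WT (3.98-fold without replicate 3) and 4.63-fold lower in cGAS-/-. The log2 fold changes were -2.60 ± 0.43 (adjusted p = 0.0015) and -2.17 ± 0.43 (adjusted p = 0.00588). H2bc21 was at 2.24, 3.73 and 1.15 TPM in WT LPS and at 2.40, 2.98 and 2.56 TPM in cGAS-/- LPS, below every untreated sample, with log2 fold changes of -1.75 ± 0.26 (adjusted p = 0.00084) and -1.54 ± 0.26 (adjusted p = 0.00235). H2az1 was at 63.7 to 67.8 TPM in WT UT and 41.5 to 58.7 TPM in cGAS-/- UT, and at 28.7, 30.6 and 17.98 TPM in WT LPS and 22.1, 22.5 and 22.2 TPM in cGAS-/- LPS. Its log2 fold changes were -1.34 ± 0.25 (adjusted p = 0.00318) and -1.18 ± 0.25 (adjusted p = 0.00919), and the call in cGAS-/- was lost without cGAS-/- UT replicate 1 (adjusted p = 0.0535). These 3 genes were also called lower in both genotypes when WT LPS replicate 3 was left out. With the 6 WT samples alone H1f2 (adjusted p = 0.0502) and H2az1 (adjusted p = 0.089) were not called, and H2bc21 was (adjusted p = 0.0473).

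**Figure D4:**
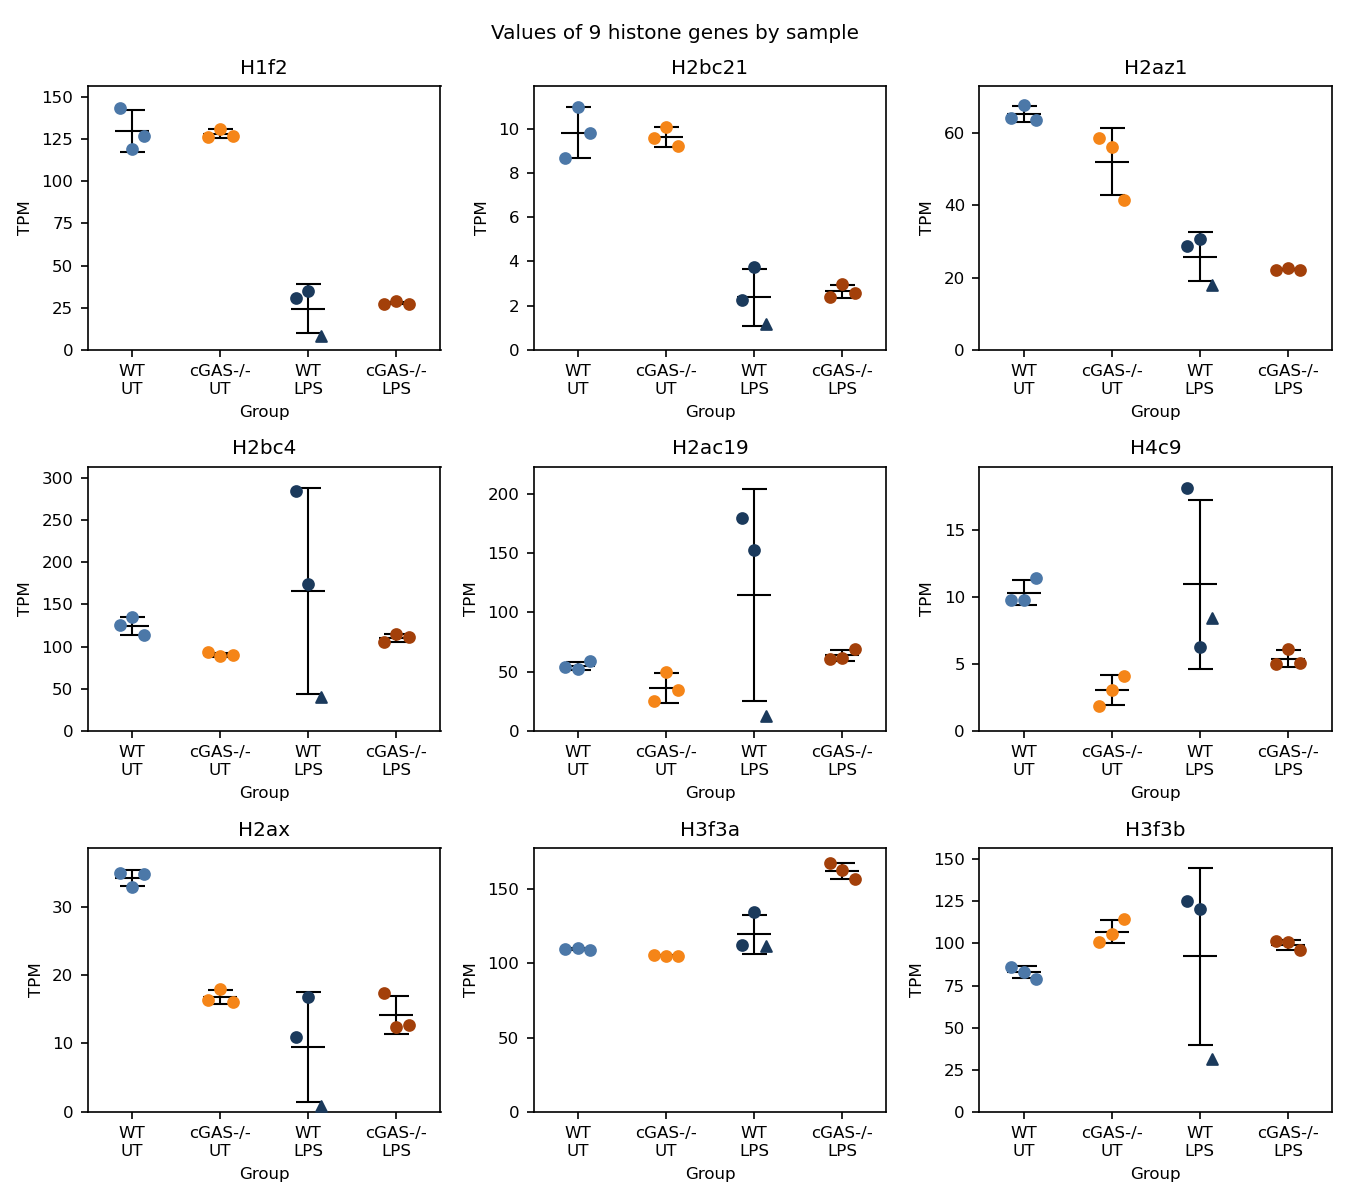
TPM of 9 histone genes in each sample (points) with the mean and SD of each group (n = 3), where the triangle is WT LPS replicate 3. H1f2, H2bc21 and H2az1 are lower in both LPS groups than in every untreated sample, H2ax and H4c9 are lower in cGAS-/- UT than in WT UT, and H3f3a is highest in cGAS-/- LPS (157 to 168).

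In WT cells, 8 of the 33 histone genes were called lower with LPS and none higher, against 27.6% of all tested genes in either direction and 23.3% in the lower one. Beside H1f2, H2bc21 and H2az1 these were H1f10, H2ac20, H2ax, H2az2 and H3c4. H1f10, a replacement linker histone, was at 4.77, 3.58 and 7.37 TPM in WT UT and at 1.52, 0.528 and 0.865 TPM in WT LPS (log2 fold change -1.65 ± 0.31, adjusted p = 0.00304, and -1.62 with adjusted p = 0.00536 without replicate 3). H2az2 was at 38.0, 32.6 and 39.6 TPM in WT UT and at 24.4, 10.7 and 1.57 TPM in WT LPS (log2 fold change -2.04 ± 0.62, adjusted p = 0.0334). H2ax was at 10.9, 16.8 and 0.779 TPM in WT LPS, below its 33.0 to 35.1 TPM in WT UT (log2 fold change -2.29 ± 0.65, adjusted p = 0.0244). For H2az2 and H2ax the lowest value came from replicate 3, and without it the log2 fold changes were -1.12 (adjusted p = 0.0149) and -1.28 (adjusted p = 0.00062). The calls of H2az2 and H2ax were lost when any WT UT replicate was left out.

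The last of the called genes were near the floor, and H2ac20, which met the filter through WT UT, had to differ between groups. H2ac20 was listed at 0 in all WT LPS samples, and H3c4, a histone H3 gene, was at 1.68, 0.750 and 1.01 TPM in WT UT and at 0, 0.409 and 0 TPM in WT LPS (log2 fold change -0.91 ± 0.27, adjusted p = 0.0308, not called without WT LPS replicate 1 or 3 or WT UT replicate 1 or 3). Without WT LPS replicate 3, 10 genes were called in this comparison, against 34.7% of all genes, and 3 of them were higher with LPS. H2ac19 was at 53.7, 51.8 and 58.7 TPM in WT UT and at 179.7 and 153 TPM in WT LPS replicates 1 and 2, but at 12.4 TPM in replicate 3 (log2 fold change 1.58 without it, adjusted p = 0.0006). H2bc4 was at 284 and 175 TPM in the first pair and at 39.5 TPM in replicate 3, around the 114 to 135 TPM of WT UT (log2 fold change 0.84 without it, adjusted p = 0.00487). H3f3b was at 125 and 120.5 TPM against 31.6 TPM (log2 fold change 0.56 without it, adjusted p = 0.00112, and -0.08 with it, which became 0.61 with TMM factors). In all 3 genes replicate 3 lay on the other side of WT UT from its group.

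In cGAS-/- cells, H1f2, H2az1 and H2bc21 were the 3 histone genes called with LPS, against 13.8% of all tested genes and 9.06% in the lower direction. The group spread was smaller here, and without WT LPS replicate 3 in the fit 6 were called against 30.8% of all genes, adding H2az2 lower and H2ac19 and H3f3a higher. With the 6 cGAS-/- samples alone 10 were called against 44.6% of all genes: H1f2, H2az1, H2az2 and H2bc21 were lower, and H2ac19, H2bc4, H2bc23, H3c15, H3f3a and H4c9 were higher. H3f3a was at 106, 105 and 105 TPM in cGAS-/- UT and at 168, 163 and 157 TPM in cGAS-/- LPS, a 1.54-fold higher mean (log2 fold change 0.62 ± 0.19, adjusted p = 0.0559 with all 12 samples and 0.000344 without WT LPS replicate 3). With TMM factors and all 12 samples H3f3a was called higher with LPS in cGAS-/- (0.91, adjusted p = 0.0177) and in WT (0.81, adjusted p = 0.025). Its WT log2 fold change in the main fit was 0.12 and not called. With a common total all 6 replacement genes, H3f3a among them, were below 0 in WT, so its direction there turned with the scaling. H2bc4 rose from 88.2 to 92.9 TPM to 106 to 115 TPM in the 6-sample fit (log2 fold change 0.29, adjusted p = 0.00354), the direction opposite to H1f2 although both are abundant replication-dependent genes of the same cluster. The cGAS-/- groups did not overlap in 11 of 33 genes, against 55.7% of all tested genes, and the WT groups in 9, against 38.2%.

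**Figure D5:**
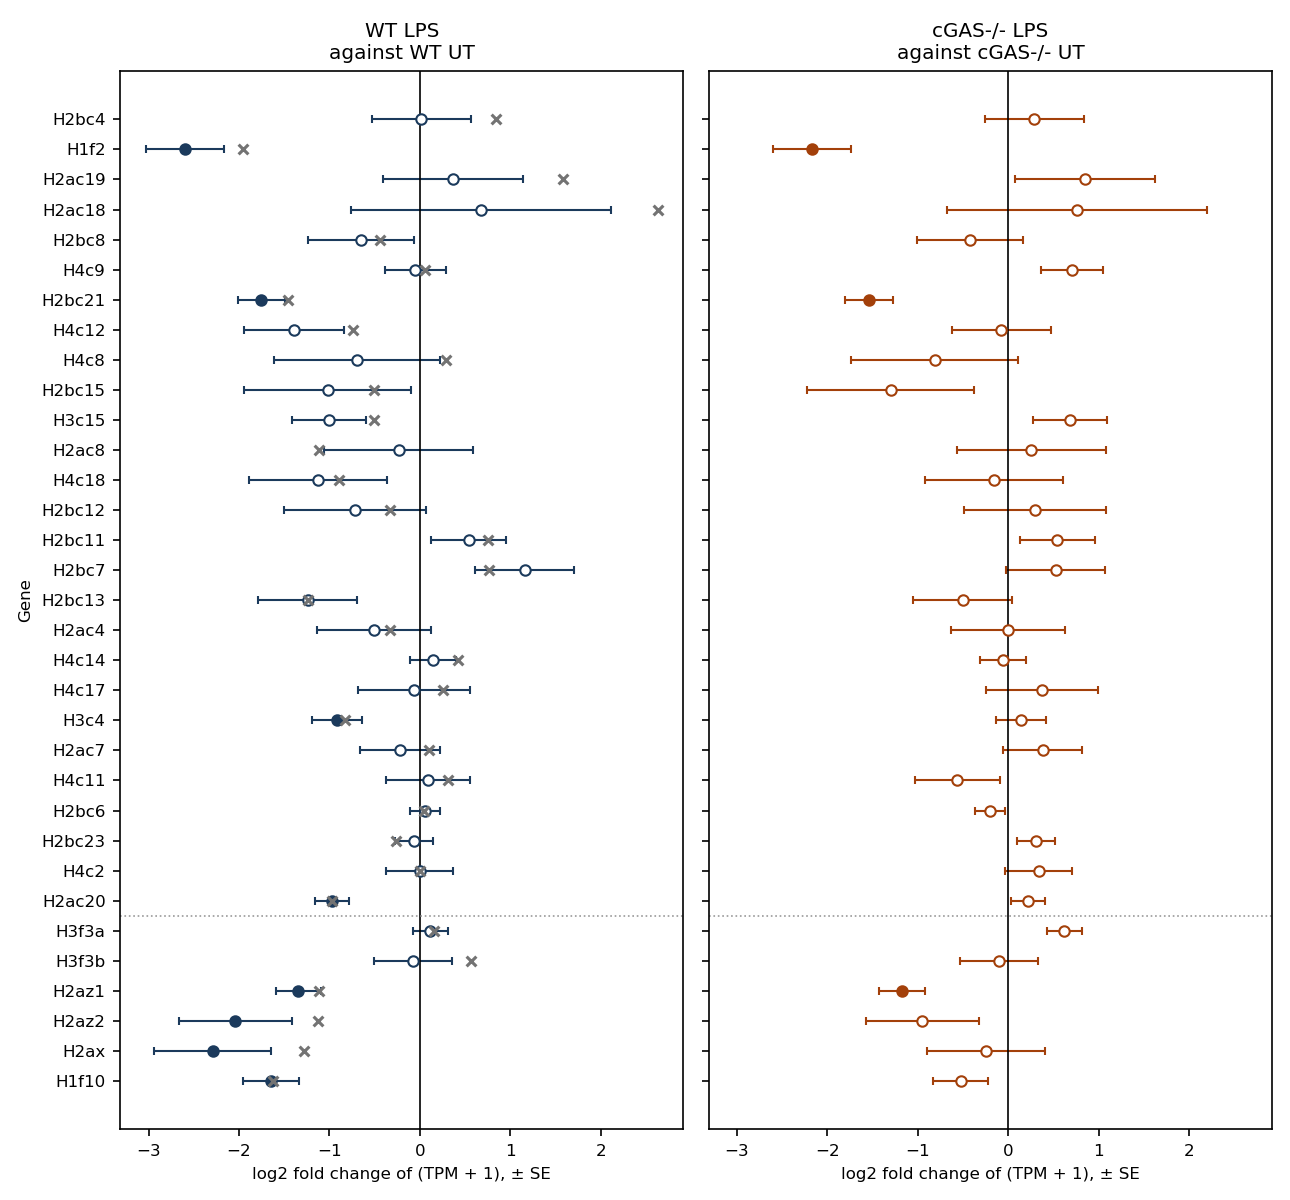
Log2 fold change of (TPM + 1) with LPS, ± SE of the fit to all 12 samples, for the 33 tested genes in WT (left) and cGAS-/- cells (right). Filled circles are called at an adjusted p under 0.05, crosses show the WT value without replicate 3 of WT LPS, and the dotted line separates the 27 replication-dependent genes (above) from the 6 replacement genes (below). H1f2, H2bc21 and H2az1 are filled on both sides, and the crosses of H2bc4, H2ac19 and H2ac18 lie to the right of their circles.

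With LPS the median log2 fold change of the replication-dependent genes was -0.23 in WT (18 of 27 below 0) and 0.21 in cGAS-/- (12 of 27 below 0), against -0.46 and -0.20 for all tested genes. That of the replacement genes was -1.50 and -0.39 (5 of 6 below 0 in each). Without WT LPS replicate 3 the WT medians were -0.27 for the replication-dependent genes (14 below 0 and 12 above), -1.12 for the replacement genes (4 of 6 below 0) and -0.29 for all genes, so the replication-dependent genes then lay at the median of all genes. The medians of all genes moved to -0.09 and -0.02 with TMM factors. The WT median of the replication-dependent genes ran from -0.45 with a common total to 0.07 with quantiles so that its direction turned with the scaling, whereas the replacement medians remained below 0 under these scalings in WT (-1.72 to -0.92) and in cGAS-/- (-0.45 to -0.16). Within the replacement class, the H3 and H2A sums moved in opposite directions in cGAS-/- cells. The sum of H3f3a and H3f3b was 206 to 219 TPM in cGAS-/- UT and 253 to 269 TPM in cGAS-/- LPS, and that of H2ax, H2az1 and H2az2 was 78.1 to 105 TPM and 45.2 to 53.6 TPM. In WT the H3 sum was 188 to 196 TPM without LPS and 237, 255 and 143 TPM with it, where replicate 3 fell below the untreated samples and the other replicates lay above them. The WT sum of H2ax, H2az1 and H2az2 was 133 to 138 TPM without LPS and 64.0, 58.1 and 20.3 TPM with it.

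Under LPS the genotypes were compared directly. No histone gene was called between cGAS-/- LPS and WT LPS with all 12 samples in limma, against 2.36% of all tested genes, and 5 had an unadjusted p under 0.05, against 18.8% of all tested genes. Without WT LPS replicate 3, 4 were called against 8.28% of all genes: H2ac19 (log2 fold change -1.36, adjusted p = 0.00599), H2bc4 (-1.01, adjusted p = 0.0068) and H4c14 (-0.85, adjusted p = 0.0385), all lower in cGAS-/- LPS, and H3f3a, which was higher (0.40, adjusted p = 0.0305). In replicate 3, H2ac19 (12.4 TPM) and H2bc4 (39.5 TPM) lay below cGAS-/- LPS (61.0 to 69.3 and 106 to 115 TPM). Both calls therefore rest on WT LPS replicates 1 and 2. H3f3a was at 168, 163 and 157 TPM in cGAS-/- LPS and at 112, 135 and 112 TPM in WT LPS, so its groups did not overlap with replicate 3 included. H4c9 was the other gene without overlap, with 5.02, 6.09 and 5.03 TPM against 18.1, 6.24 and 8.42 TPM. That made 2 of 33, against 17.7% of all tested genes.

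Whether the LPS change differs between genotypes was tested as an interaction. None of the 33 was called in limma with all 12 samples, against 0.900% of all genes, and 5 had an unadjusted p under 0.05, against 11.1% of all genes. The interaction of H1f2 was 0.43 ± 0.61 and that of H2bc21 0.21 ± 0.37 on the log2 scale, and with errors of this size a p that misses the threshold does not show that the genotypes respond alike. Without WT LPS replicate 3, 3 were called against 4.56% of all genes: H2ac20 (1.19, adjusted p = 0.0489), H2ax (1.03, adjusted p = 0.05, just under the threshold) and H3f3b (-0.67, adjusted p = 0.0138). Of these, H2ac20 met the filter through WT UT, where it was high, and had to differ between groups. The H2ax values put side by side were 33.0 to 35.1 TPM in WT UT, 16.1 to 17.99 TPM in cGAS-/- UT, and 12.4 to 17.4 TPM in cGAS-/- LPS, with WT LPS at 10.9 and 16.8 TPM beside 0.779 TPM in replicate 3. The comparisons share control samples.

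The other tested genes were low or varied between samples of a group. H2ac18 was at 189 TPM in WT LPS replicate 1, 16.8 TPM in replicate 2 and 0 TPM in replicate 3, and at 3.78 to 25.4 TPM elsewhere. H2bc8 was at 2.11 to 15.4 TPM, H4c12 at 0 to 8.11 TPM, H4c8 at 0 to 9.51 TPM and H3c15 at 0 to 4.17 TPM. Replicates of these genes often differed more than the groups. The remaining H2A and H2B genes H2ac4, H2ac7, H2ac8, H2bc6, H2bc7, H2bc11, H2bc12, H2bc13, H2bc15 and H2bc23, and the H4 genes H4c2, H4c11, H4c14, H4c17 and H4c18, stayed between 0 and 11.9 TPM, and many of their samples were at 0. H2bc23 was at 0.494, 0.674 and 0.901 TPM in WT UT and at 0.0306, 0.0541 and 0.0733 TPM in cGAS-/- UT (log2 fold change -0.68, adjusted p = 0.224 with all 12 samples).

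Some of these genes are nearly identical copies, so that reads can be shared between them. By blastn at 95% identity, the longest transcript of H2ac19 was matched over its whole length at 100% by Gm20634, and that of H2ac18 over 90.3% by the same transcript. Gm20634 overlaps H2ac18 in the genome, so reads may also be shared between H2ac19 and H2ac18. H2bc23 was covered in full by H2bc24 (99.8%), H4c17 by H4c18 and H4c12 by H4c11. Values of such pairs are uncertain one by one. H1f2, H2bc21, H1f10, H2az2 and H4c14 had no such match in another annotated gene, and H2bc4 and H2ax were matched over 16.1% and 14.6% of their longest transcript. H2az1 was matched over 25.8% by Gm6722 and H3f3b over 15.9% by Gm37486. H3f3a had matches in 33 other genes, with 16.9% covered by the closest, Gm58982. The genes called between the untreated groups were open to shared reads, since H4c9 was matched over 48.1% by H4c17 (96.3% identity) and H2ac20 over 75.6% by Gm20634 (96.2%). H2bc4 also overlaps H2ac6 on the opposite strand.

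Genes that act beside histones were counted in lists. The table held 20 of 26 listed S phase genes, 15 of 18 for histone mRNA synthesis, processing and decay, and 17 of 26 chaperones and exchange factors. S phase genes, which mark DNA synthesis, were tested in 20 cases: 5 were lower in cGAS-/- UT than in WT UT, 19 were lower with LPS in WT and 10 were lower with LPS in cGAS-/-, with none higher, against 1.58%, 23.3% and 9.06% of all tested genes called lower. Without WT LPS replicate 3 in the fit these counts were 12 (with 1 gene higher), 18 and 15, against 4.17%, 26.5% and 21.6% of all tested genes called lower. With the 6 WT samples alone, 11 S phase genes were lower with LPS, against 4.62% of all tested genes. The 3 proliferation markers Mki67, Top2a and Cdk1 summed to 30.4 to 33.1 TPM in WT UT, 7.91 to 10.3 TPM in cGAS-/- UT, 0.663 to 4.04 TPM in WT LPS and 1.57 to 3.22 TPM in cGAS-/- LPS, so they moved with the replication-dependent sum between the untreated groups, where their part in that result was not tested. Of 14 tested genes for histone mRNA synthesis, 3′ end processing and decay, 3 were lower with LPS in WT, a share close to the 23.3% of all tested genes and so no result about the list, namely Slbp, the stem-loop binding protein (log2 fold change -0.70, adjusted p = 0.0248), Cpsf3, the endonuclease that cuts the pre-mRNA (-0.85, adjusted p = 0.0297), and Eri1, an exonuclease of histone mRNA decay (-1.06, adjusted p = 0.027). All 3 were also called without WT LPS replicate 3 (adjusted p = 0.0043, 0.0265 and 0.0461). None of the 14 was called with LPS in WT with the 6 WT samples alone, or in the other comparisons with all 12 samples. Of 17 tested chaperones and exchange factors, 10 were lower with LPS in WT, against the same 23.3%, and none was called elsewhere with all 12 samples. With the 6 WT samples alone, 1 of the 17 was lower with LPS, against 4.62% of all tested genes. Without WT LPS replicate 3, 9 were lower and 1 higher with LPS in WT, and 5 lower and 1 higher with LPS in cGAS-/-, against 34.7% and 30.8% of all tested genes in either direction. In the same fit 2 were lower in cGAS-/- UT than in WT UT, 2 were higher in cGAS-/- LPS than in WT LPS, and 1 had a higher interaction, against 5.33%, 8.28% and 4.56%. Among 6 other tested histone genes, Cenpa, the centromeric H3 variant, was at 4.23 to 5.11 TPM in WT UT and 1.71 to 1.99 TPM in cGAS-/- UT (log2 fold change -0.94, adjusted p = 0.035) and fell with LPS in both genotypes (-2.11 in WT, -1.97 without WT LPS replicate 3, and -1.43 in cGAS-/-).

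RefSeq promoters (250 bases before to 50 bases after the gene start, GRCm38.p6) matched 55 replication-dependent genes with 56 promoters and 5 of the 6 replacement genes, and H2bc21 and H2ax were not among them. CCAAT, a box bound by the factor NF-Y, was found on either strand in 48 of the 56 promoters (85.7%) and in 4 of the 5, against 37.4% of 32851 promoters. TATAAA was found in 32 of the 56 (57.1%) and in 1 of the 5, against 13.6%. The promoter of H1f2 (chr13:23738557-23738856, plus strand) holds CCAAT 54 bases before the gene start, and that of H3f3a (chr1:180813556-180813855, minus strand) holds the reverse complement ATTGG 24 bases before it, while TATAAA was not found in either. Only these exact letters were searched, and the H1f2 sequence also holds TATATATA. Both are shown with CCAAT or ATTGG in capitals. H1f2 was the tested histone gene with the lowest log2 fold change with LPS in both genotypes. H3f3a is a replacement gene that was not lower in either genotype in the main fit. With a common total it was below 0 in WT. A match is a description of letters and not of binding.
H1f2: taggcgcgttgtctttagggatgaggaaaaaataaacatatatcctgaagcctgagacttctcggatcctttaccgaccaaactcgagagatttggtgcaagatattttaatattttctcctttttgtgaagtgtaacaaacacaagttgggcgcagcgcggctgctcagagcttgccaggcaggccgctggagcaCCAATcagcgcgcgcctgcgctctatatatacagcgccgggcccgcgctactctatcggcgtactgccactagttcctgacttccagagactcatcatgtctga
H3f3a: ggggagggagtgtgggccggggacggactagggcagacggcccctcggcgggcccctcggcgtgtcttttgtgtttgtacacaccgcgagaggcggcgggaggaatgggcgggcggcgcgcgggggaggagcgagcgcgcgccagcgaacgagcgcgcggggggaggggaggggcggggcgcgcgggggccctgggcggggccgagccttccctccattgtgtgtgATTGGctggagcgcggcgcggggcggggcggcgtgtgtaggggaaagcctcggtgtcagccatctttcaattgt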

How the data were processed

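Per the labels, RNA was made into strand-specific mRNA libraries and read paired-end, and the submitters' processing notes name fastp, STAR and kallisto with the build GRCm39. The authors deposited 1 table of values taken here as TPM, averaged over the transcripts of a symbol. Both the unit and the averaging were inferred from the values, whose columns sum to less than 1000000, so the depth is unknown. All 12 sample columns were used and 0 were left out. The members and lists were chosen with earlier results of these data known. Every member that passed the filter was named, and a member below it where it exceeded 1 TPM. Genes with at least 1 after scaling to 1000000 in at least 3 samples were tested as log2(TPM + 1), with limma 3.58.1 in R 4.3.3, a model of the 4 groups and Benjamini-Hochberg adjustment over 11887 genes (threshold 0.05, two-sided). The fit was tested on simulated data. Alternatives were another pseudocount or filter, TMM factors (trimmed means of M values), a common total, quantiles, a replicate block, sample weights, a fold threshold, 6 samples and each sample left out. Stem-loops came from the GRCm39 genome with GENCODE transcripts, near copies from blastn 2.17.0 (95% identity, at least 100 bases).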

Additional observations from a re-analysis of the deposited data

Results flagged for a closer look

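Among the 80 tested genes of the related lists and markers, the LPS change differed between cGAS-/- and WT in 5 by the test of the interaction in limma with all 12 samples, against 0.900% of all 11887 tested genes. The paper had already listed Mki67, Top2a and Tk as more expressed in untreated WT, and the lists were chosen with earlier results known. The count is therefore no independent support. The differences, cGAS-/- minus WT on the log2 scale, were 2.31 for Top2a (adjusted p = 0.00143), 2.14 for Mki67 (0.00237), 2.03 for Rrm2 (0.0033), 1.38 for Tk1 (0.0207) and 1.12 for Cdc6 (0.0395). When WT LPS replicate 3 was left out, 16 of the 80 were called, against 4.56% of all genes, and these 5 were among them, with differences of 2.20, 2.08, 1.88, 1.43 and 1.12 in the same order. Mki67 was at 12.3 to 13.3 TPM in WT UT and at 1.88 to 2.51 TPM in cGAS-/- UT, and both LPS groups were below 1 TPM.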

How the results depend on the processing

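The counts of histone genes called moved with several settings, and so did the share of all tested genes called, given here as a percentage. Between the untreated groups (2 called) the count was 0 with a pseudocount of 0.1, a filter of 5, quantiles, the replicate block or a log2 fold change beyond 2 (0.370% to 1.89%), 1 with a pseudocount of 5, no filter, TMM factors or a common total (0.996% to 2.66%), 7 with sample weights (11.5%) and 8 with 6 samples (10.4%), and 0 to 4 with 1 sample left out (1.03% to 5.33%). Between the LPS groups (0 called) it was 0 to 4 with 1 sample left out (0.648% to 27.9%). With LPS in WT (8 called) it was 3 with the fold threshold (4.32%) or 6 samples (6.02%), 4 with sample weights (19.4%) and 5 to 10 with 1 sample left out (16.5% to 48.7%). With LPS in cGAS-/- (3 called) it was 1 with the fold threshold (3.50%), 10 with sample weights (48.3%) or 6 samples (44.6%) and 2 to 6 with 1 sample left out (8.58% to 30.8%). For the interaction (0 called) it was 1 with a pseudocount of 5 (1.72%) and 0 to 3 with 1 sample left out (0.353% to 12.6%). The cause was not tested. H3f3b with LPS in WT reversed from -0.08 to 0.56 without replicate 3 of WT LPS, ran from -0.41 to 0.56 with 1 sample left out, and was 0.61 with TMM factors. H1f2 and H2bc21 with LPS in cGAS-/-, and H2bc21 with LPS in WT, kept their call under the 22 alternatives other than the fold threshold, under which H2bc21 was not called in either genotype. Samples with the same replicate number did not deviate together (0 of 18 pairs with a correlation over 0.1, from -0.03 to 0.04), so the numbers were not taken as pairing, and the replicate block is given only as the count above. The counting error of values near 0 TPM, such as those of H2ac20 and H3c4, is unknown because the depth is.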
